A study of Caenorhabditis elegans with 2 samples.

Results

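Heat shock proteins and J-domain proteins form the network that folds, protects and disaggregates other proteins, and their genes were examined here for binding of NHR-21, a member of the nuclear hormone receptor family in the worm Caenorhabditis elegans. The members were all protein-coding genes of the Ensembl WBcel235 annotation whose symbol was hsp- or dnj- followed by a number, and sip-1, which gave 52 of 19985 protein-coding genes. Ensembl gives hsp-16.1 and hsp-16.48 to 2 genes each, so the members carried 50 distinct symbols; RefSeq names the second copies hsp-16.11 and hsp-16.49, and those names are used below. The chaperonin genes of the cct series were not members.

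NHR-21 carrying an eGFP tag was immunoprecipitated from chromatin of whole worms at the second larval stage, and the bound DNA was sequenced. Both samples, biological replicates 1 and 2 of a single group, came from strain OP361 with the genotype unc-119(tm4063) III; wgIs361, held males and females together, and were of unknown age, with fragments of 150 to 350 bp. The tagged gene sits in the integrated transgene wgIs361, every animal carried the unc-119 mutation, and the sources used here do not name the promoter that drives the transgene. No control sample and no other condition were analysed here, so the values below describe this strain and stage and compare no conditions. Whole worms mix all tissues, so binding in a few cells and weaker binding in many cannot be told apart.

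HSP90 and HSP70 proteins are ATP-driven foldases, and HSP110 releases the nucleotide from HSP70. J-domain proteins bring substrates to HSP70 and trigger its ATPase, chaperonins enclose a substrate in a chamber, and small heat shock proteins hold unfolded proteins without ATP. In worms the cytosolic set is controlled by the heat shock factor HSF-1, which binds repeated GAA units in alternating orientation, while separate unfolded protein responses serve the endoplasmic reticulum (ER) and the mitochondria.

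The sequences at the strongest peaks show what lay under the binding. Each is the 101 bp of ce11 (WBcel235) centred on the summit, the position where the authors' peak caller placed the highest enrichment, for the 6 members with the strongest peaks, and each reads 5′ to 3′ along the chaperone gene's own strand. Capitals mark GAANNTTC and TTCNNGAA, the facing and back-to-back pairs of GAA units that make up heat shock elements, and the other words searched, which were the E-box CACGTG, the repeat GAGAGA, the nuclear receptor site AGGTCA and the ER stress site TGACGTGG, all on both strands and counted with overlaps.
hsp-90, V:14685731-14685831, plus strand: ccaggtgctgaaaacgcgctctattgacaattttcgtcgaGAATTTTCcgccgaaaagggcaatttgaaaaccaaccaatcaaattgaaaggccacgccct
hsp-60, III:1619085-1619185, plus strand: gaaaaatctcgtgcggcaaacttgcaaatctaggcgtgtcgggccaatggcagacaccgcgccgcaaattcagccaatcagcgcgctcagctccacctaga
hsp-1, IV:17278520-17278620, plus strand: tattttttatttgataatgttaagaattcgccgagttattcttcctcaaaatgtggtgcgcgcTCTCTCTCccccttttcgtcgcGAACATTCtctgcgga
hsp-3, X:6092125-6092225, minus strand: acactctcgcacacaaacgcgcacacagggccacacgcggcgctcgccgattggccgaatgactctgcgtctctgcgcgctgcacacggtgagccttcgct
hsp-110, III:8447115-8447215, minus strand: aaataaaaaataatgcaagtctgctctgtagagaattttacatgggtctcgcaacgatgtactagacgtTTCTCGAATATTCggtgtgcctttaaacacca
dnj-9, II:4851779-4851879, plus strand: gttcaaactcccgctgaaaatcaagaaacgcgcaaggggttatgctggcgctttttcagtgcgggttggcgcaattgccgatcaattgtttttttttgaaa
The windows of hsp-90, hsp-1 and hsp-110, all cytosolic, hold GAANNTTC, and those of hsp-60, hsp-3 and dnj-9 hold none of the words searched.

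NHR-21 peaks were found at the promoters of hsp-90, hsp-60, hsp-1, hsp-3, hsp-110, hsp-6, sip-1 and 10 J-domain genes, while hsp-75, hsp-70, hsp-4 and the hsp-16 genes were among the members with no optimal peak. A gene was counted when the summit of an optimal peak, that is, a peak past the authors' reproducibility threshold on the pooled replicates, lay in the promoter window of an annotated 5′ end (from 1000 bp before it to 250 bp after it). By that rule 17 of the 52 members had a peak (32.7%), against 11.6% of all protein-coding genes. Candidate summits, from the pooled list of 30000 intervals that also holds background, were in the windows of 30 members (57.7%, against 41.2% of all genes), and 17 of those 30 were optimal (56.7%, against 28.1% of all genes with a candidate). The strongest 10% of the optimal peaks (364 peaks) reached 7 members (13.5%), against 1.38% of all genes, namely hsp-90, hsp-60, hsp-1, hsp-3, hsp-110, dnj-9 and dnj-13. No test is given for these counts, since the list was drawn up with earlier results of these data known. Of the 17 peaks, 12 also lay in the window of a neighbouring gene, and when a peak counted for its nearest gene alone the count fell to 8 members (15.4%, against 8.98% of all genes).

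**Figure D1:**
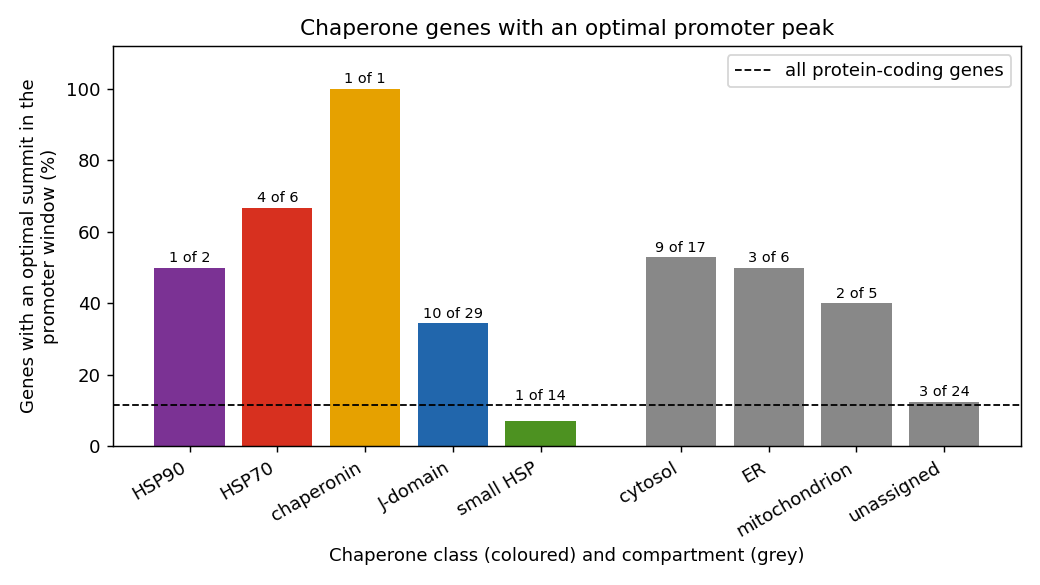
Share of genes (%, vertical axis from 0) with an optimal summit in the promoter window, by chaperone class (coloured bars) and by compartment (grey bars), with the number of genes above each bar. The dashed line is the 11.6% of all protein-coding genes, and the small heat shock proteins (1 of 14, or 7.1%) lie below it. Without the 4 hsp-16 genes whose windows are mostly repeated sequence, their share is 1 of 10 (10%).

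The counts varied by class and by compartment. An optimal peak was found at 1 of 2 HSP90 genes, 4 of 6 HSP70 and HSP110 genes, the single mitochondrial chaperonin gene, 10 of 29 J-domain genes and 1 of 14 small heat shock genes. Of those 14, 4 hsp-16 genes have windows in which 0 to 6.5% of 36-base words occur once in the genome, and lack of binding there cannot be told apart from lack of unique reads. Without them, a choice made after seeing the data, the small heat shock count was 1 of 10 (10%), against 11.6% of all genes, and that of all members was 17 of 48 (35.4%). By compartment, as far as it could be assigned from textbook knowledge, the counts were 9 of 17 for the cytosol, 3 of 6 for the ER and 2 of 5 for mitochondria, with 3 of 24 among genes left unassigned. Within the cytosol, peaks were at 1 of 1 HSP90, 2 of 3 HSP70, 5 of 6 J-domain and 1 of 7 small heat shock members, the last being 1 of 3 without the 4 repeated windows. The difference between classes was not tested.

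**Figure D2:**
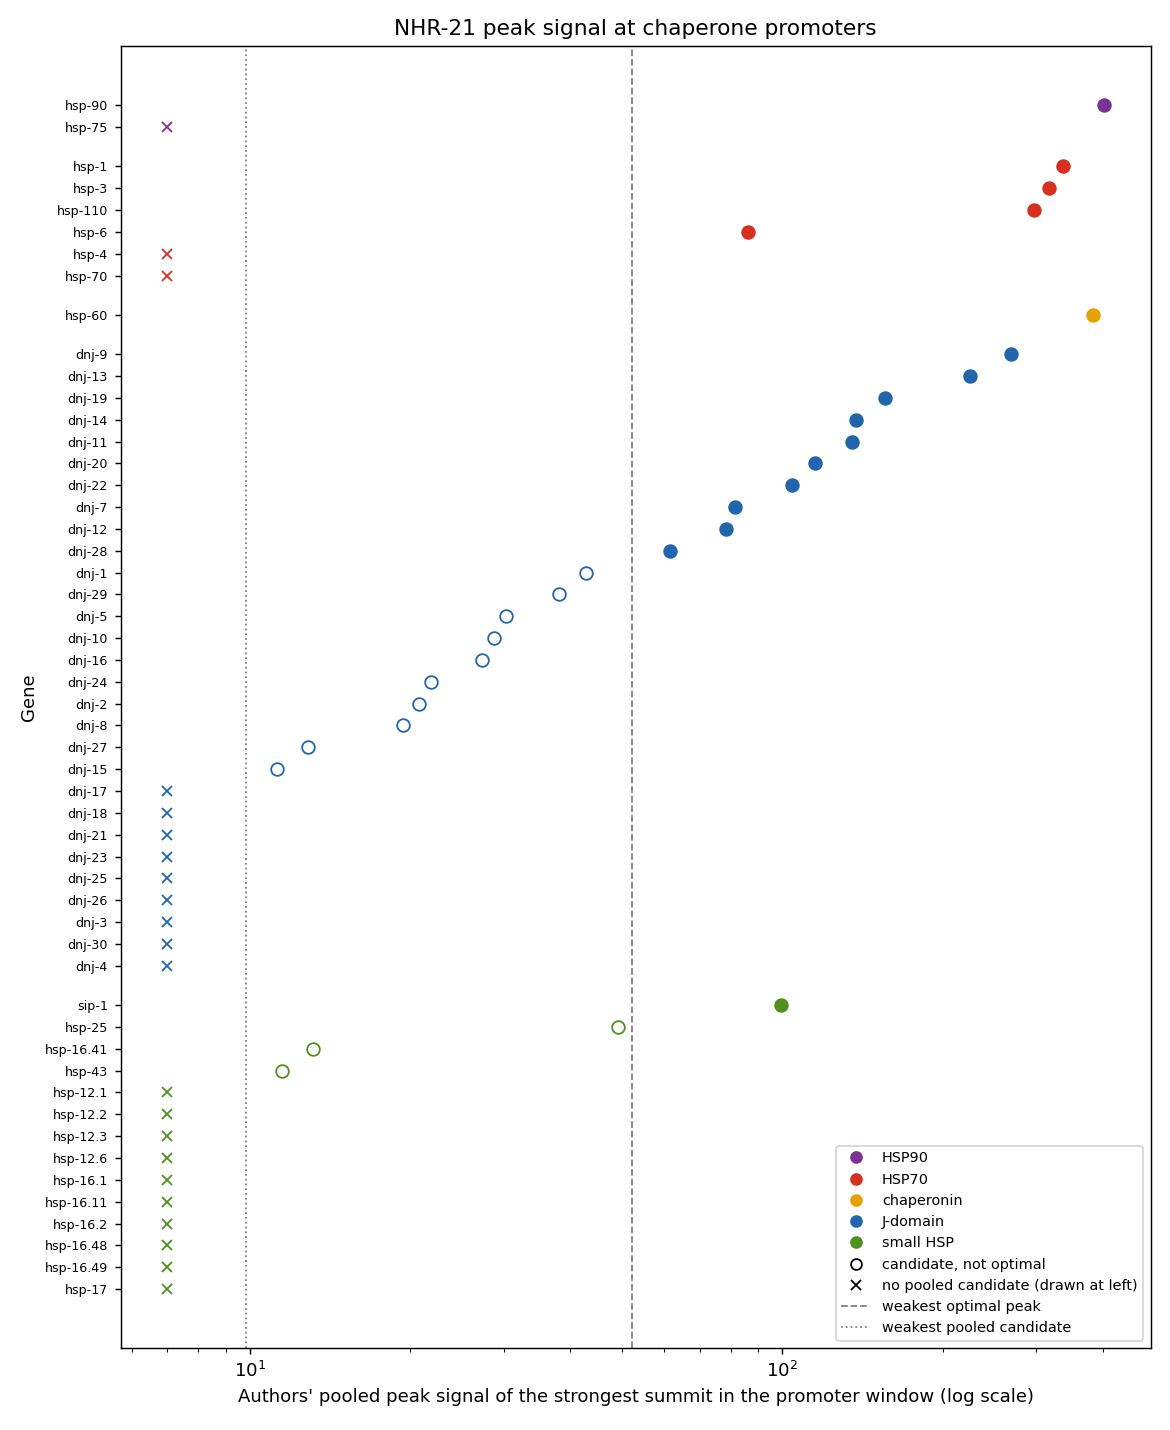
Authors' signal of the strongest pooled summit in each member's promoter window (horizontal log axis), 1 row per gene, grouped and coloured by class. Filled points are optimal peaks (52.2 or more, dashed line), open points are other candidates (9.85 or more, dotted line) and crosses mark the 22 genes with no pooled candidate, which are drawn at the left without a value. Optimal peaks run from 61.6 at dnj-28 to 401 at hsp-90.

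The HSP90 and HSP70 classes held 4 of the 7 members reached by the strongest 10% of peaks. At hsp-90, the cytosolic HSP90 also known as daf-21, the pooled signal was 401, rank 81 of 3647, with rank 85 in the replicate 1 list and rank 89 in the replicate 2 list (peak V:14685651-14685894). Its annotation has 2 5′ ends, and the summit lay 379 bp upstream of the inner end but 863 bp downstream of the outer end, inside the annotated gene. The mitochondrial HSP90, hsp-75, had no candidate in any list, and 100% of the 36-base words in its window occurred once in the genome.

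Constitutive HSC70, hsp-1, had a signal of 337 (IV:17278414-17278673, rank 133, and ranks 98 and 183 in replicates 1 and 2), 389 bp upstream of its 5′ end. The HSP110 gene, hsp-110, had 297 (III:8447065-8447281, rank 185, and 207 and 184), at 256 bp upstream. Both partners of the cytosolic HSP70 cycle were thus among the 364 strongest peaks. Heat-inducible hsp-70 had no candidate in any list, although all of the 36-base words in its window were unique (100%).

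In the ER the members of a pair of paralogs had different values. Of the genes for the ER-lumen HSP70 known as BiP, hsp-3 had a signal of 317 (X:6092064-6092291, rank 160, and 176 and 153 in replicates 1 and 2), with the summit 51 bp upstream. Its paralog hsp-4, which is strongly induced when unfolded proteins accumulate in the ER, had no candidate in any list, and 97.7% of its window's words were unique. The closest optimal summit to hsp-4 lay 44940 bp upstream.

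In mitochondria the chaperonin gene hsp-60 had a signal of 384 (III:1619015-1619260, rank 89, and ranks 101 and 95), the second strongest of the members. Its summit lay 607 bp upstream of hsp-60 and 206 bp upstream of the divergent gene Y22D7AL.10, which RefSeq names the mitochondrial 10 kDa heat shock protein, the co-chaperonin that caps HSP60. With a window of 500 bp hsp-60 was therefore not counted. The matrix HSP70, hsp-6, had a weaker peak of 86.2 (V:4826965-4827354, rank 1854, and 2286 and 1855), 400 bp upstream.

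Optimal peaks of J-domain genes ran from 61.6 to 268, below the 5 strongest members. The strongest was dnj-9, whose compartment was left unassigned, at 268 (II:4851709-4851941, rank 239, and 170 and 329 in replicates 1 and 2). Next came dnj-13, the DNAJB1-type partner of cytosolic HSP70, at 225 (II:11545405-11545555, rank 342, and 494 and 293). The DNAJA-type cytosolic genes followed lower, with dnj-19 at 156 (V:5505041-5505430, rank 675, and 935 and 655) and dnj-12 at 78.4 (I:14756660-14757049, rank 2125, and 3199 and 1806).

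Other cytosolic J-domain genes had intermediate peaks. The cysteine string protein gene dnj-14, whose product sits on synaptic vesicles, had a signal of 138 (X:4711905-4712294, rank 854, and 823 and 909 in replicates 1 and 2). The ribosome-associated dnj-11, DNAJC2 in mammals, had 135 (IV:6585419-6585808, rank 878, and 694 and 1155). The auxilin gene dnj-25, which serves clathrin uncoating, had no pooled candidate, with ranks of 21934 and 19867 in the replicate lists.

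Of the ER-lumen J-domain genes, dnj-20 (DNAJB11 in mammals) had a signal of 115 (II:9619384-9619773, rank 1207, and 865 and 1467), at a summit 409 bp upstream of its inner 5′ end and 4597 bp inside the gene as measured from the outer end. The DNAJC3 type gene dnj-7 had 81.7 (X:7193917-7194306, rank 2009, and 1886 and 2143). The other 2 J-domain genes of the ER, dnj-29, the SEC63 subunit of the translocon, and dnj-27, the ERdj5 type with thioredoxin domains, had candidates of 38.1 and 12.8 that were not optimal. The remaining optimal peaks were at dnj-22 (104, V:8462093-8462482, rank 1417, and 1139 and 1660) and dnj-28 (61.6, I:2996202-2996591, rank 2922, and 1654 and 2243), the weakest of the 17. Neither mitochondrial J-domain gene had an optimal peak: dnj-10 (DNAJA3 in mammals) had a candidate of 28.8, and dnj-21, part of the import motor, had no pooled candidate.

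Among small heat shock genes, sip-1, which acts in embryos, had the only optimal peak. Its peak had a signal of 99.3 (III:10506865-10507254, rank 1505, and 1208 and 1846 in replicates 1 and 2), with the summit 259 bp upstream of sip-1 and 2 bp downstream of the 5′ end of sly-1. The muscle-associated hsp-25 came closest to the threshold among all members without an optimal peak, at 49.1, and its replicates disagreed, with ranks 2522 and 7018. It was counted when replicate 1 stood alone.

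The hsp-16 genes, classical reporters of heat shock in worms, lacked peaks. Of the 6 copies, hsp-16.41 had the only pooled candidate, a weak interval at 13.1 (rank 21604) 571 bp upstream, with its summit inside the neighbouring hsp-16.2 gene. The 4 copies hsp-16.1, hsp-16.11, hsp-16.48 and hsp-16.49 form a near-identical inverted repeat on chromosome V: between 0 and 6.5% of the 36-base words in their windows occurred once in the genome. How the authors treated reads that match several places is not stated in the sources used here. At hsp-16.2 and hsp-16.41, by contrast, 98.9% and 98.3% of the words were unique. Their strongest replicate intervals were still weak, at ranks 10259 and 13606 in replicate 1 and a shared interval at rank 11003 in replicate 2. The summit of that shared interval lay 37 bp downstream of an hsp-16.2 5′ end.

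The sequence between the 5′ ends of hsp-16.2 and hsp-16.41 is printed because it is a heat-inducible promoter that carries heat shock units without a peak. It runs for 220 bp at V:1804958-1805177, on the plus strand, with GAANNTTC and TTCNNGAA in capitals.
hsp-16.2 to hsp-16.41: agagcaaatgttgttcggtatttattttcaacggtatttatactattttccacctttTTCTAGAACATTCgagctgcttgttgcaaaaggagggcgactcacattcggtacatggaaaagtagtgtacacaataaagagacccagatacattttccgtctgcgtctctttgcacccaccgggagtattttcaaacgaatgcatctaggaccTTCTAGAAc
It holds 1 GAANNTTC and 2 TTCNNGAA, and its GC content is 40.9%.

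Members without an optimal peak were mostly far below the threshold. After hsp-25, the next were dnj-1 (pooled rank 4656, signal 42.8), dnj-29 (5418), dnj-5 (7229), dnj-10 (7690) and dnj-16 (8268). At dnj-1 the replicates again differed, with ranks 18527 and 3805. Candidates at dnj-24, dnj-2, dnj-8, hsp-43 and dnj-15 were weaker still, with signals from 21.9 down to 11.2. In all, 13 members had a pooled candidate that was not optimal and 22 had none. Of these 22, 11 had an interval in at least 1 replicate list, at ranks from 10259 to 29648: dnj-3, dnj-4, dnj-17, dnj-21, dnj-23, dnj-25, dnj-30, hsp-12.2, hsp-12.6, hsp-16.2 and hsp-17. The other 11 had none in any list: dnj-18, dnj-26, hsp-4, hsp-12.1, hsp-12.3, hsp-70, hsp-75, hsp-16.1, hsp-16.11, hsp-16.48 and hsp-16.49. Optimal summits did lie inside the bodies of dnj-24 and hsp-12.3, the latter 698 bp downstream of the 5′ end at rank 328.

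The members with an optimal peak ranked high in both replicate lists. Optimal peaks had passed the authors' reproducibility threshold, so their overlap with the replicate lists was largely set in advance. The same share over all 3647 optimal peaks was not counted. All 17 optimal peaks overlapped an interval among the 3647 strongest of each replicate list, with ranks from 85 to 3199 in replicate 1 and from 89 to 2243 in replicate 2. Requiring 50% overlap, or taking the interval with the nearest summit, left 16, without dnj-28. The dnj-28 window held 2 optimal summits. The strongest in replicate 2 (rank 2243) lay at -342 bp from the 5′ end, against -91 bp for the strongest pooled summit. Taking the 3647 strongest intervals of a replicate by itself, 18 members (34.6%) had a summit in replicate 1 and 17 (32.7%) in replicate 2, against 11.1% and 11.3% of all protein-coding genes. The 17 optimal members were counted in each replicate. The signal values of the lists are on different scales, so only ranks are compared. Read totals are not given in the peak lists, so the depth behind each value is unknown.

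**Figure D3:**
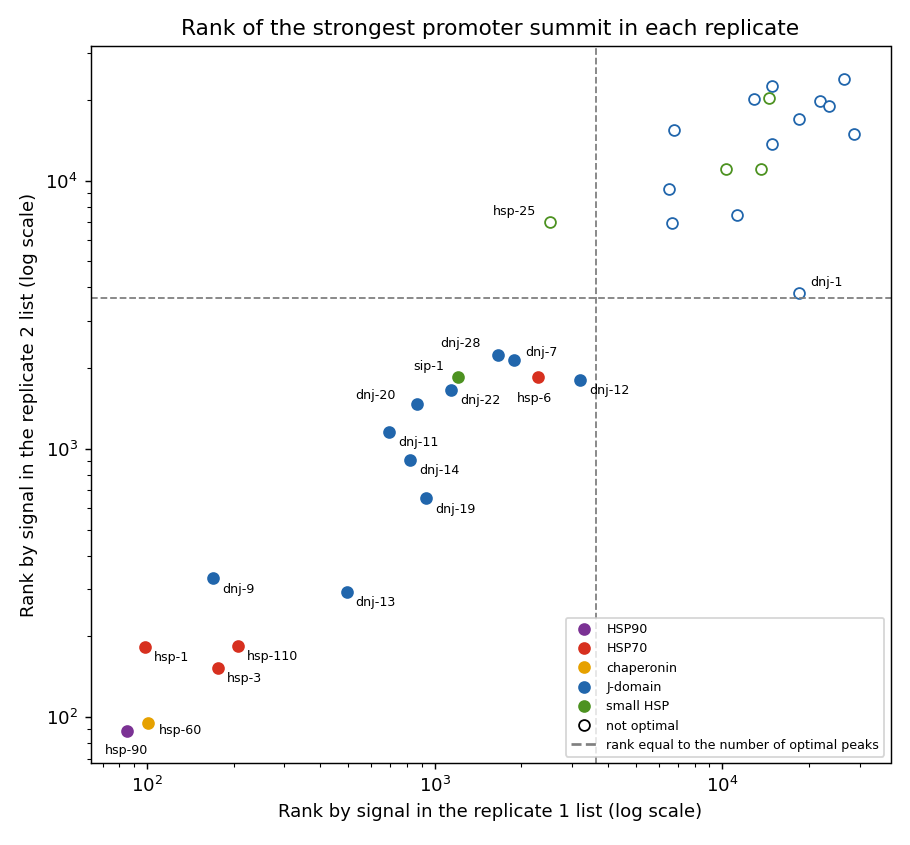
Rank by signal of the strongest promoter summit in the replicate 1 list (horizontal) and the replicate 2 list (vertical), on log axes where a low rank is a strong peak, for the 34 members with a candidate in both lists. Filled points (17) have an optimal pooled peak and all lie within the 3647 strongest of both lists (dashed lines), while hsp-25 is within that number in replicate 1 only. Optimal peaks had been selected by the authors for reproducibility.

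Most of the peaks lay between a chaperone gene and a divergent neighbour. All 17 summits were upstream of the member's nearest 5′ end, by 49 bp (dnj-12) to 607 bp (hsp-60) with a median of 259 bp, and over all genes with an optimal summit 93.5% were upstream and the median was 246.5 bp upstream. In the 12 shared windows the partner gene was on the opposite strand each time. How often this holds for all shared optimal peaks was not counted, so it is not shown to be particular to chaperone genes. Among all genes with an optimal peak, 43.7% had their strongest peak in a shared window. For 9 of the 17 members (52.9%) the nearest 5′ end was the neighbour's, against 22.5% of all genes with an optimal peak that lost it under the nearest-gene rule; which gene a shared peak acts on was not measured.

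The neighbours included a co-chaperonin gene, a proteasome gene and a nuclear receptor gene. Beside hsp-60 lay the co-chaperonin gene Y22D7AL.10 already named, and the peak of hsp-110 lay 188 bp upstream of rpn-3, a regulatory subunit of the 26S proteasome. The dnj-19 peak was 17 bp upstream of nhr-47, a gene of the receptor family to which NHR-21 belongs. The other partners were C47E8.4 (a FAM50 homolog, beside hsp-90), C37H5.5 (nucleolar complex protein 3, beside hsp-6), glit-1 (neuroligin-like, beside dnj-14), F38A5.2 (TraB domain, beside dnj-11), natc-1 (a MAK10 homolog, beside dnj-22), sly-1 (a Sec1 family protein, beside sip-1), F54D5.9 (an F-box protein, beside dnj-13), mtx-1 (a metaxin, beside dnj-12) and supr-1 (beside dnj-28), by their RefSeq names. The peaks of hsp-1, hsp-3, dnj-7, dnj-9 and dnj-20 were in no other window.

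**Figure D4:**
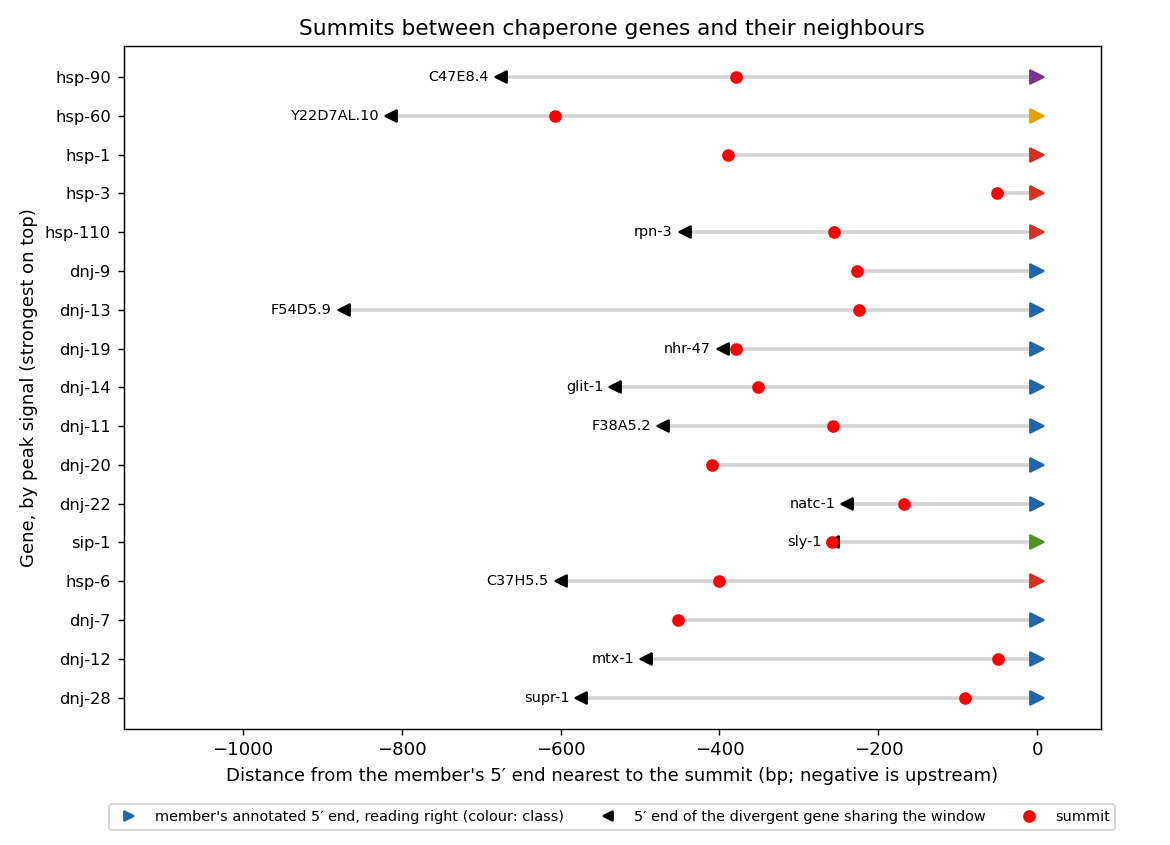
Position of the summit (red) relative to the annotated 5′ end of each member nearest to it (coloured triangle at 0, bp, upstream negative) and to the 5′ end of the divergent gene that shares the window (black triangle), for the 17 members in order of signal. In 9 rows the summit is nearer to the black triangle, among them hsp-90, hsp-60 and hsp-110.

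A heat shock element unit lay near the summit at 6 of the 9 cytosolic members with a peak. GAANNTTC occurred within the 101 bp around the summit at 6 of the 17 members (35.3%), namely hsp-90, hsp-1, hsp-110, dnj-12, dnj-13 and dnj-19, against 3.6% of all optimal peaks and 3.9% of optimal peaks in promoter windows. All 6 were among the 9 cytosolic members with a peak, and 0 of the other 8 had the word there. Those 8 were 3 ER, 2 mitochondrial and 3 unassigned members, and the unassigned ones may include cytosolic genes. The centre of the word was 6 bp from the summit at hsp-90, 8 bp at dnj-12, 28 bp at hsp-110, 38 bp at hsp-1, 42 bp at dnj-13 and 44 bp at dnj-19. With 51 bp around the summit 2 members had the word (dnj-12 and hsp-90, against 1.9% of all optimal peaks), and with 201 bp 7 did (hsp-60 in addition, against 8.0%). HSP-1 and HSP-110, together with J-domain proteins such as DNJ-12 and DNJ-13, dissolve protein aggregates, a grouping made here after the values were seen.

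Close to the 5′ ends, the same words were found at members with and without a peak. In the 300 bp from 250 bp upstream of a 5′ end, GAANNTTC was present at 8 of 17 members with an optimal peak and at 16 of 35 without, against 22.6% of all nuclear protein-coding genes. This stretch does not reach the summits of hsp-1, hsp-90, dnj-19 and hsp-60, among others, which lay 389, 379, 379 and 607 bp upstream. At dnj-19 the word was near the summit and absent from this stretch, so the counts do not cover the whole promoter window. TTCNNGAA was present at 6 of 17 and 12 of 35, against 23.2%. Counting both kinds together, 4 units, the most at any member, were found at hsp-90 and hsp-110, which had an optimal peak, and at hsp-16.1, hsp-16.11, hsp-16.2 and hsp-16.41, which had none. At least 3 units were present at 2 of 17 members with a peak and 7 of 35 without, hsp-70 among the latter with 3. The others of those 7 were the hsp-16 genes, which lie in divergent pairs whose 300 bp stretches overlap. The pairs are hsp-16.2 with hsp-16.41, hsp-16.1 with hsp-16.48, and hsp-16.49 with hsp-16.11. The counts of members without a peak therefore include some sequence more than once. At the 4 hsp-16 genes with repeated windows, lack of binding cannot be told apart from lack of unique reads. The share of all genes with at least 3 units was not counted. A match is a description of letters and not evidence of a bound factor.

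Each of the other words was in 2 or fewer of the 17 summit windows of the members. TTCNNGAA, the other heat shock element unit, was in 2 of 17 windows (dnj-12 and hsp-110), a larger share than the 4.2% of all optimal peaks. AGGTCA, a half-site of many nuclear receptors, was in 1 of 17 windows (dnj-14), against 3.8% of all optimal peaks. GAGAGA was in 1 of 17 (hsp-1), against 24.3%, CACGTG in 0 of 17, against 7.2%, and TGACGTGG, a site of the ER stress factors, in 0 of 17, against 0.5%. The GC content of the 17 windows ran from 21.8% at dnj-7 to 65.3% at hsp-3, with a median of 45.5%, against a median of 44.6% over all optimal peaks.

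Partners and regulators of the chaperones also carried peaks. Of 30 genes listed as co-chaperones, further ER chaperones and stress regulators, 20 had an optimal summit (66.7%), against the 11.6% of all genes. The ER chaperones accounted for 6 of 7: pdi-3 (signal 305) and pdi-1, pdi-2 and pdi-6 (73.2, 150 and 176), all protein disulfide isomerases, crt-1 (203), which encodes calreticulin, and enpl-1 (165), the ER form of HSP90. Calnexin, cnx-1, was the exception, with a candidate at rank 13192.

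The co-chaperones had peaks in 5 of 11 cases. They were bag-1 (signal 294) and unc-23 (140), nucleotide exchange factors of the BAG family, sti-1 (154), which bridges HSP70 and HSP90, sgt-1 (69.3) and fkb-6 (62.5). The HSP90 partners cdc-37, daf-41 and pph-5 had candidates at ranks 6561, 5544 and 5083 that were not optimal. No pooled candidate was found at chn-1 or ahsa-1, though ahsa-1 had an interval at rank 987 in replicate 2 and none in replicate 1. The peaks of sgt-1 and fkb-6, and that of pdi-3 above, were nearest to another gene.

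Stress regulators had peaks in 9 of 12 cases, most of them in the ER and mitochondrial responses. Regulators of the ER response had them at xbp-1 (signal 208), atf-6 (128) and pek-1 (58.0), though not at ire-1 (rank 7621). Regulators of the mitochondrial response had them at atfs-1 (91.6), ubl-5 (55.3) and dve-1 (55.1). Peaks were also found at atf-4 (162), skn-1 (126) and daf-16 (58.2). The heat shock factor gene hsf-1 had a candidate at rank 24196 that was not optimal, and its inhibitor hsb-1 one at rank 11750. These differences between regulators were not tested.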

How the data were processed

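Chromatin immunoprecipitation peaks of eGFP-tagged NHR-21 came from 2 biological replicates. The authors deposited narrowPeak lists in ce11: a pooled list and a list per replicate of 30000 candidate intervals each, and the pooled optimal list of 3647 peaks. Per the text listing deposited with the replicate lists, candidates were derived from the ChIP alignment of each replicate and an alignment of control reads. For the alignment, the peak calling and the threshold, the tools and settings are not stated in the sources used here. The deposited signal is the peak caller's own value and was used only to rank and describe intervals within a list. The deposited −log10 q-value was not used to rank. Start, end and summit positions were deposited in bp, and the ce10 lists were not used.

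Gene ends came from Ensembl release 115 and sequence from the RefSeq genome, both WBcel235, which has the coordinates of ce11. A summit (start plus offset) from 1000 bp upstream to 250 bp downstream of a 5′ end of a protein-coding transcript counted for that gene, and for every gene whose window held it. A gene's value is its strongest summit. Ranks are by signal within a list. Replicate intervals matched by 1 bp of overlap with a pooled peak. Counting was tested on simulated data and done in Python 3.11.15 with pandas 2.3.3. Words of 36 bases were an arbitrary stand-in for reads, whose length the sources used here do not state.

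The members, classes, lists and words were chosen with earlier results of these data known, so counts are given beside those of all genes without tests. Named genes were all members with an optimal summit, the 6 highest members below them, all members with no candidate, and listed partners with a peak; others were named after their values were seen. Alternatives changed the window, the peak threshold, the gene assignment, the overlap, the replicates and, after seeing the data, the summit width and members with repeated windows.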

Additional observations from a re-analysis of the deposited data

How the results depend on the processing

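Giving each peak only to the gene with the nearest 5′ end changed the counts most: 8 members kept a peak, with 2 in the HSP70 class, 6 among J-domain genes and 0 each for HSP90, chaperonin and small heat shock genes, 3 in the cytosol and 0 in mitochondria. A window of 500 bp lost hsp-60, which left 0 chaperonin and 1 mitochondrial genes. The stronger 50% of the optimal peaks left 1 mitochondrial gene and 13 of the 30 partners and regulators. Under that threshold the share of all genes fell too, from 11.6% to 6.23%. Without replicate 1 and without replicate 2 the members numbered 17 and 18, and small heat shock genes 1 and 2, the addition being hsp-25. The GAANNTTC count was 2 with 51 bp around the summit, a width chosen after seeing the data. Of 76 alternative values, the other 62 were within 1.5 times the count reported. Causes were not tested. No paired analysis was possible because there was a single group. Without read totals, control samples or other factors, neither the depth nor the share of these peaks that any immunoprecipitation would give was measured.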
